A study of Mus musculus with 12 samples.

Results

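The data described here are the RNA levels of 10 genes of endothelial cells and blood progenitors: Kdr, Flt1, Tek, Pecam1, Cdh5, Etv2, Tal1, Lmo2, Runx1 and Gata1. They were listed by symbol and looked up in a table of 55487 genes; all 10 were found, and all 10 were among the 19235 genes that passed the filter on low counts and were tested. The cells were female mouse embryonic stem (ES) cells of a C57BL6/CAST hybrid, in which the 2 parental chromosome sets differ at many single bases. The 4 groups, of 3 libraries each, were wild type cells at day 0, wild type cells at day 7, cells labelled as a knockout of the sirtuin gene Sirt7 at day 0, and cells so labelled at day 7. By the protocol in the labels, day 0 cells were in medium with LIF, the leukaemia inhibitory factor that holds mouse ES cells undifferentiated, and day 7 cells were taken 7 days after LIF was withdrawn, so that the days differ in both time and LIF, and no group was kept with LIF for 7 days. A separate treatment label conflicts with this: it reads LIF for wild type replicate 2 and labelled knockout replicates 1 and 3 at both days, and None for the other replicates at both days. It was not used, which reading holds is not settled by the labels, and what the day comparison stands for depends on it. The labels do not say whether replicates were separate cultures, so the p-values measure the spread between these libraries, which may be technical.

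Endothelial cells and the first blood cells arise close together in the embryo, from mesoderm that carries the receptor Kdr. Etv2, an ETS transcription factor, acts at the start of this programme; Tal1, its partner Lmo2, and Runx1 and Gata1 then act as blood and endothelium separate, with Runx1 needed for blood cells to leave endothelium and Gata1 for red cells and platelets. Kdr and Flt1 bind vascular endothelial growth factor (VEGF), Tek binds angiopoietins, and Pecam1 and Cdh5 hold neighbouring endothelial cells together. Pecam1 is also present on undifferentiated mouse ES cells.

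Library totals ran from 25190483 to 69079368 counts. Levels are counts per 1000000 library counts (CPM), with library sizes scaled by the trimmed mean of M values (TMM); group values are means ± SD (n = 3). Sirt7 (chromosome 11, 120618372 to 120625240) was not lower in the libraries labelled knockout: 19.96 ± 3.49 CPM against 10.3 ± 2.34 in wild type at day 0 and 23.0 ± 2.63 against 12.01 ± 2.81 at day 7, with log2 differences of 0.95 (SE 0.21) and 0.94 (SE 0.21) that did not pass (edgeR adjusted p = 0.182 and 0.299, unadjusted p = 9.9e-04 and 0.00103). The genotypes did not overlap at either day, as for 15.7% of all genes at day 0 and 19.5% at day 7. Mafg, at 44.5 to 74.8 CPM, overlaps Sirt7 on the same strand, and its part in the Sirt7 counts was not tested. The deleted part of the gene is not given in the sources used here, and if the labels had been swapped, every direction given between genotypes would be the opposite. Of 7 markers of undifferentiated ES cells 6 fell over the 7 days in both genotypes and Tbx3 did not pass (169.5 to 172.0 CPM in wild type, adjusted p = 0.874, and 170.5 to 174.1 CPM in the labelled knockout, adjusted p = 0.818). Their summed level lay between 5066 and 5382 CPM in the day 0 libraries and between 415 and 470.1 CPM in all 6 day 7 libraries, whichever treatment label they carry. The sum hides a difference in Esrrb at day 0. Esrrb was at 43.8 ± 9.26 CPM in wild type and 231 ± 74.5 CPM in the labelled knockout (log2 2.40, SE 0.22, edgeR adjusted p = 0.00147). Its fall over 7 days also differed between genotypes (interaction log2 -2.92, SE 0.32, edgeR adjusted p = 0.0152). The other 6 markers were not called between genotypes at day 0. Markers of mesenchyme and smooth muscle summed to 7.83 to 13.3 CPM at day 0 and 4700.4 to 5353 CPM at day 7. Trophoblast markers summed to 50.8 to 74.7 CPM and 1570 to 2165 CPM, at day 7 mostly Hand1. Those of parietal and visceral endoderm summed to 305 to 354.5 CPM and 1600 to 1825 CPM, mostly Sparc. Blood markers, which include Gata1, summed to 9.76 to 11.4 CPM and 13.1 to 29.6 CPM. For 12 endothelial markers, which include Cdh5, Pecam1 and Tek, the sum was 65.7 to 92.6 CPM at day 0 and 153 to 180.5 CPM at day 7. The rise of that sum lay mainly in those 3 genes. The other 9 summed to 22.6 to 22.7 CPM at day 0 and 20.5 to 31.4 CPM at day 7 in wild type. In the labelled knockout they summed to 20.7 to 21.9 CPM and 17.0 to 23.3 CPM. Of the 12, 11 could be tested, and the same 6 rose in both genotypes: Cdh5, Pecam1, Tek and, at low levels, Tie1, Sox17 and Erg. In wild type these last 3 rose by 4.23, 4.62 and 2.32 log2 units, to 2.14, 3.51 and 1.52 CPM. In wild type 1 fell (Esam, log2 -1.78, adjusted p = 0.00882), and in the labelled knockout 3 fell (Esam, Cldn5 and Sox18). Of all genes tested, 32.9% rose and 32.1% fell in wild type, and 31.1% and 32.3% in the labelled knockout. The counts of endothelial and ES cell markers have to be read beside these shares. Emcn was at 0 throughout. Since these are bulk samples, fewer cells of a type and less RNA per cell cannot be told apart, and the part of other cell types in the results was not tested.

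The bases upstream of the start sites are shown for the matched genes that rose most in wild type (Flt1, Runx1, Kdr and Tek) and for the 1 gene that fell (Gata1). Of the 10 genes, 7 matched the RefSeq promoter table (GRCm38.p6), with 9 start sites; Pecam1, Cdh5 and Lmo2 did not. Each line is read 5′ to 3′ on the gene's strand and ends before the first annotated exon. Capitals mark short words that were searched on both strands. For ETS factors the words were AGGAAG, or in a second form CCGGAA. Those for GATA factors were AGATAA, or in a second form TGATAA. For RUNX factors they were TGTGGT, or in a second form TGCGGT, and for the E-box they were CAGATG, or in a second form CAGCTG.
Flt1, chr5:147726012-147726261, minus strand: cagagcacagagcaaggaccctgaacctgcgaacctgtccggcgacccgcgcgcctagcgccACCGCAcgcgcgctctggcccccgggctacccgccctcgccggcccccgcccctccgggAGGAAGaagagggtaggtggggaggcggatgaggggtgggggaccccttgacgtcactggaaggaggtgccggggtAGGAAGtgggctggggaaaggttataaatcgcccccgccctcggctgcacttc
Runx1 proximal start, chr16:92697330-92697579, minus strand: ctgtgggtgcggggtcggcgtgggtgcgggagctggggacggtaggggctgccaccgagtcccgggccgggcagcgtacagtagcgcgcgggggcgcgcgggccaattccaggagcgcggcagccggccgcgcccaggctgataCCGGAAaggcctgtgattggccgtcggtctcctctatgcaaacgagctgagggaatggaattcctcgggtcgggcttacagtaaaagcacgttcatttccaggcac
Kdr, chr5:75978459-75978705, minus strand: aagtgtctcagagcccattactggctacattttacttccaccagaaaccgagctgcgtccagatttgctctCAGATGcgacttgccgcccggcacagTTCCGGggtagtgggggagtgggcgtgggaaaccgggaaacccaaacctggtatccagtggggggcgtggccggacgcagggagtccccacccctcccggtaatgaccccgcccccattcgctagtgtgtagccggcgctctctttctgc
Tek, chr4:94739039-94739288, plus strand: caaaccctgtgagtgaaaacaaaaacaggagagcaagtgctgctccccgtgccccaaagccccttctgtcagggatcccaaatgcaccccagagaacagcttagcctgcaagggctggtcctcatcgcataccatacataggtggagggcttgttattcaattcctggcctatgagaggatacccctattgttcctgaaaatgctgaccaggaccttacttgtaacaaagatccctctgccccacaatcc
Gata1, chrX:7967911-7968160, minus strand: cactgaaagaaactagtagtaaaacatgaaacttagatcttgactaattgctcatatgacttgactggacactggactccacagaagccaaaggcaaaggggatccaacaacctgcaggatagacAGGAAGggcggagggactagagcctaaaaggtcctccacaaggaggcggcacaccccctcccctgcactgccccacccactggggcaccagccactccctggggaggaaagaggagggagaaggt

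An ETS word stood in 6 of the 9 upstream windows, or 66.7%, beside 38.3% of 32536 upstream windows in the whole table. Flt1 held 2 of them and Kdr, Etv2, Gata1 and both Runx1 starts 1 each; Tek and both Tal1 starts held none. GATA words were in 1 window (Tal1) where 16.5% of all windows had 1, RUNX words in 1 (Flt1) against 18.5%, and E-box words in 1 (Kdr) against 25.5%. A word in a window is a description of these letters and was not linked to the binding of any factor.

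Across the 7 days Flt1, Runx1, Cdh5 and Kdr rose most in both genotypes. Tek, Tal1 and Pecam1 followed in that order in wild type, and Tal1, Tek, Lmo2 and Pecam1 in the labelled knockout. Gata1 fell in both, and Etv2 passed the test in neither. By edgeR's quasi-likelihood test with Benjamini-Hochberg adjustment over all genes (threshold 0.05), 8 of the 10 changed in wild type, 7 higher and 1 lower, where 65.1% of all genes tested changed (32.9% higher and 32.1% lower). In the libraries labelled knockout 9 of 10 changed, 8 higher and 1 lower, beside 63.4% of all genes (31.1% higher and 32.3% lower). The median log2 change of the 10 genes was 2.26 in wild type and 1.95 in the labelled knockout, beside 0.01 and -0.02 over all genes tested. At an unadjusted p under 0.05 the counts were 8 and 9, beside 68.1% and 66.9% of all genes. DESeq2 also called 8 and 9 of the 10, beside 54.5% and 56% of the genes it tested. The groups did not overlap for the same numbers of genes. In wild type 7 were apart upwards and 1 downwards, beside 36.4% and 35.6% of all genes (72% in all), and in the labelled knockout 8 and 1, beside 34.6% and 34.9% (69.5% in all). Most genes changed over the 7 days, so counts of 8 and 9 of 10 have to be read against a background in which most genes are called.

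**Figure D1:**
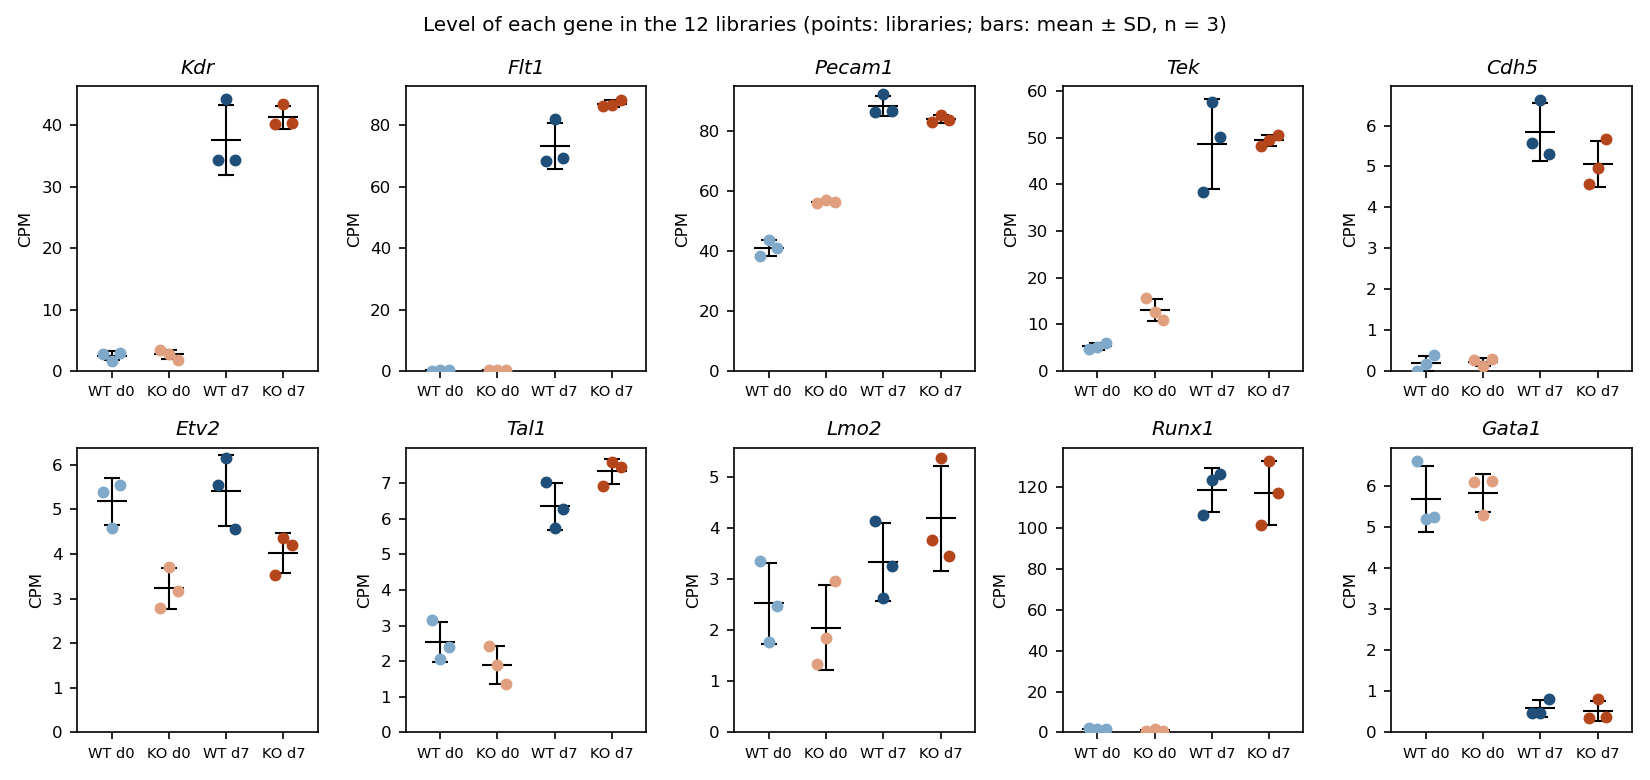
Level of each of the 10 genes (CPM, linear axis from 0) in the 4 groups; points are libraries, horizontal bars the mean and whiskers the SD of n = 3. Kdr, Flt1, Tek, Cdh5, Tal1, Pecam1 and Runx1 are higher in every day 7 library than in every day 0 library, and Gata1 is lower.

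Flt1 (chromosome 5, 147561604 to 147726011, minus strand) encodes VEGF receptor 1, which binds VEGF tightly and limits its action. It was nearly silent at day 0, with 0, 0.424 and 0.417 CPM in wild type replicates 1, 2 and 3 and 0.409, 0.151 and 0.145 CPM in the labelled knockout, from 30 and 22 reads in all. At day 7 it was at 68.4, 81.9 and 69.2 CPM in wild type and at 86.2, 86.6 and 88.4 CPM in the labelled knockout. All 6 day 7 libraries were above all 6 of day 0, and at day 7 each labelled knockout library was above each wild type library. The log2 rise was 7.90 (SE 0.50, adjusted p = 1.2e-07) in wild type and 8.55 (SE 0.52, adjusted p = 9.1e-08) in the labelled knockout, the largest of the 10 in both. Without labelled knockout day 0 replicate 1, which held 12 of that group's 22 reads, the latter was 9.19.

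Kdr (chromosome 5, 75932827 to 75978458, minus strand) encodes VEGF receptor 2, the main signalling receptor for VEGF in endothelium and an early mark of the mesoderm that gives blood and vessels. Its levels at day 0 were 2.80, 1.67 and 2.95 CPM in wild type and 3.41, 2.80 and 1.83 CPM in the labelled knockout. By day 7 they were 34.3, 44.3 and 34.3 CPM and 40.2, 43.4 and 40.3 CPM. The days did not overlap and the genotypes did at both days. The rise was 15.3-fold in wild type (log2 3.94, SE 0.27, adjusted p = 2.0e-07) and 15.5-fold in the labelled knockout (log2 3.95, SE 0.27, adjusted p = 2.0e-07), and the difference between these changes was 0.01 (SE 0.35).

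Tek (chromosome 4, 94739289 to 94874976, plus strand) encodes the angiopoietin receptor Tie2, found on endothelium and blood stem cells. It was read in all day 0 libraries, at 4.59, 5.23 and 6.08 CPM in wild type and at 15.5, 12.5 and 10.9 CPM in the labelled knockout. At day 7 the values were 38.3, 57.6 and 50.2 CPM in wild type and 48.3, 49.4 and 50.7 CPM in the labelled knockout. The day 0 groups were apart, and those of day 7 overlapped, with the lowest and the highest library both wild type. Tek rose by 3.20 log2 units in wild type (SE 0.19, adjusted p = 6.5e-08) and by 1.93 in the labelled knockout (SE 0.18, adjusted p = 2.6e-06).

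Pecam1 (chromosome 11, 106654217 to 106750628, minus strand), the adhesion molecule CD31, was the highest of the 10 genes per exon length in all 4 groups. Its day 0 levels were 38.5, 43.8 and 41.2 CPM in wild type and 56.1, 57.1 and 56.3 CPM in the labelled knockout. The day 7 levels were 86.5, 92.4 and 86.7 CPM and 82.9, 85.6 and 83.8 CPM. The genotypes were apart at both days, with the labelled knockout higher at day 0 and lower at day 7. Pecam1 rose 2.15-fold in wild type (log2 1.10, SE 0.07, adjusted p = 1.4e-07) and 1.49-fold in the labelled knockout (log2 0.57, SE 0.07, adjusted p = 2.9e-05).

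Cdh5 (chromosome 8, 104101625 to 104144511, plus strand) encodes VE-cadherin, the cadherin of endothelial junctions. Day 0 held 18 reads of it in wild type and 23 in the labelled knockout, and the levels were 0, 0.165 and 0.382 CPM and 0.273, 0.114 and 0.289 CPM. It reached 5.57, 6.64 and 5.30 CPM in wild type and 4.57, 4.96 and 5.68 CPM in the labelled knockout at day 7. The days were apart, the genotypes overlapped, and the rise was 4.95 log2 units (SE 0.60, adjusted p = 2.4e-05) and 4.43 (SE 0.58, adjusted p = 4.6e-05). Without wild type day 0 replicate 3, which held 11 of that group's 18 reads, the wild type rise was 5.85, and it lay between 4.46 and 5.85 over the fits that leave out 1 library. An antisense gene that overlaps its start, Gm29682, had no count in any library.

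Runx1 (chromosome 16, 92601466 to 92826149, minus strand) had the highest CPM of the 10 genes at day 7. At day 0 it was at 2.24, 1.62 and 1.81 CPM in wild type and at 0.784, 1.89 and 0.699 CPM in the labelled knockout. At day 7 it was at 106, 123 and 127 CPM and at 101, 133 and 117 CPM. No day 0 library came near a day 7 library, and the genotypes overlapped at both days, at day 0 through labelled knockout replicate 2. The rise was 63.3-fold in wild type (log2 5.98, SE 0.31, adjusted p = 2.6e-08) and 107-fold in the labelled knockout (log2 6.74, SE 0.33, adjusted p = 1.6e-08). The antisense gene Gm26626 inside it stayed at or below 0.135 CPM.

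Tal1 (chromosome 4, 115056426 to 115071755, plus strand), a basic helix-loop-helix factor of blood and endothelial precursors, was at 3.16, 2.07 and 2.40 CPM in wild type and 2.42, 1.89 and 1.35 CPM in the labelled knockout at day 0. Its day 7 levels were 7.03, 5.73 and 6.27 CPM and 6.93, 7.60 and 7.45 CPM. The days were apart and the genotypes overlapped. Tal1 rose by 1.324 log2 units (SE 0.23, adjusted p = 4.5e-04) in wild type and by 1.96 (SE 0.24, adjusted p = 2.7e-05) in the labelled knockout.

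Lmo2 (chromosome 2, 103957986 to 103981878, plus strand) is a LIM-only protein that bridges Tal1 and GATA factors. Its day 0 levels were 3.36, 1.77 and 2.47 CPM in wild type and 1.33, 1.85 and 2.96 CPM in the labelled knockout. At day 7 they were 4.14, 2.63 and 3.25 CPM and 3.76, 5.37 and 3.45 CPM. The days overlapped in wild type and were apart in the labelled knockout. Its log2 difference was 0.41 (SE 0.34, adjusted p = 0.319) in wild type, which did not pass, and 1.02 (SE 0.35, adjusted p = 0.0231) in the labelled knockout. The latter was not called without day 0 replicate 1 (adjusted p = 0.0718), day 0 replicate 2 (0.0671) or day 7 replicate 2 (0.0901), each labelled knockout. The change did not differ between genotypes by test (interaction 0.62, SE 0.49, adjusted p = 0.878).

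Etv2 (chromosome 7, 30633616 to 30635852, minus strand), at the head of the endothelial programme, was at 5.39, 4.59 and 5.56 CPM in wild type and 2.80, 3.71 and 3.18 CPM in the labelled knockout at day 0. At day 7 it was at 5.55, 6.15 and 4.57 CPM and at 3.53, 4.36 and 4.19 CPM. The days overlapped within each genotype, and at both days every labelled knockout library was below every wild type library. The change over 7 days was 0.07 log2 units (SE 0.19, adjusted p = 0.759) in wild type and 0.32 (SE 0.19, adjusted p = 0.164) in the labelled knockout, and neither passed. Days between 0 and 7 were not analysed here, so a passing rise of Etv2 is not measured by these libraries.

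Gata1 (chromosome X, 7959260 to 7978071, minus strand), the factor of red cell and megakaryocyte genes, was the 1 gene that fell. It was at 6.63, 5.203 and 5.25 CPM in wild type and 6.10, 5.30 and 6.12 CPM in the labelled knockout at day 0. At day 7 it was at 0.462, 0.475 and 0.813 CPM and at 0.363, 0.811 and 0.387 CPM, from 73 and 50 reads. The days were apart and the genotypes overlapped at both. Gata1 fell by 3.32 on the log2 scale in wild type (SE 0.33, adjusted p = 5.5e-06) and by 3.50 in the labelled knockout (SE 0.34, adjusted p = 4.3e-06).

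Per kilobase of exon, a scale on which genes can be compared, the order at day 0 in wild type was Pecam1 (6.61 ± 0.426 CPM per kb), Etv2 (4.94 ± 0.494) and Gata1 (2.34 ± 0.333), and then Lmo2 (1.17 ± 0.368) and Tek (1.12 ± 0.158), whose libraries overlapped. Tal1 (0.580 ± 0.127), Kdr (0.274 ± 0.0774), Runx1 (0.157 ± 0.0262), Cdh5 (0.0434 ± 0.0456) and Flt1 (0.0208 ± 0.0180) followed, with Kdr overlapping Runx1 and Cdh5 overlapping Flt1. At day 7 in wild type the order was Pecam1 (14.2 ± 0.535), Tek (10.3 ± 2.06), Runx1 (9.88 ± 0.903), Flt1 (5.42 ± 0.561), Etv2 (5.17 ± 0.760) and Kdr (4.17 ± 0.636). Tek and Runx1 overlapped there, as did Flt1 and Etv2, and Etv2 and Kdr. Lmo2 (1.54 ± 0.351), Tal1 (1.45 ± 0.149) and Cdh5 (1.39 ± 0.168) lay together below them, and Gata1 went from the third place to the last (0.239 ± 0.0815). In the labelled knockout the day 7 order was the same except that Kdr (4.57 ± 0.204) stood above Etv2 (3.84 ± 0.419), without overlap.

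**Figure D2:**
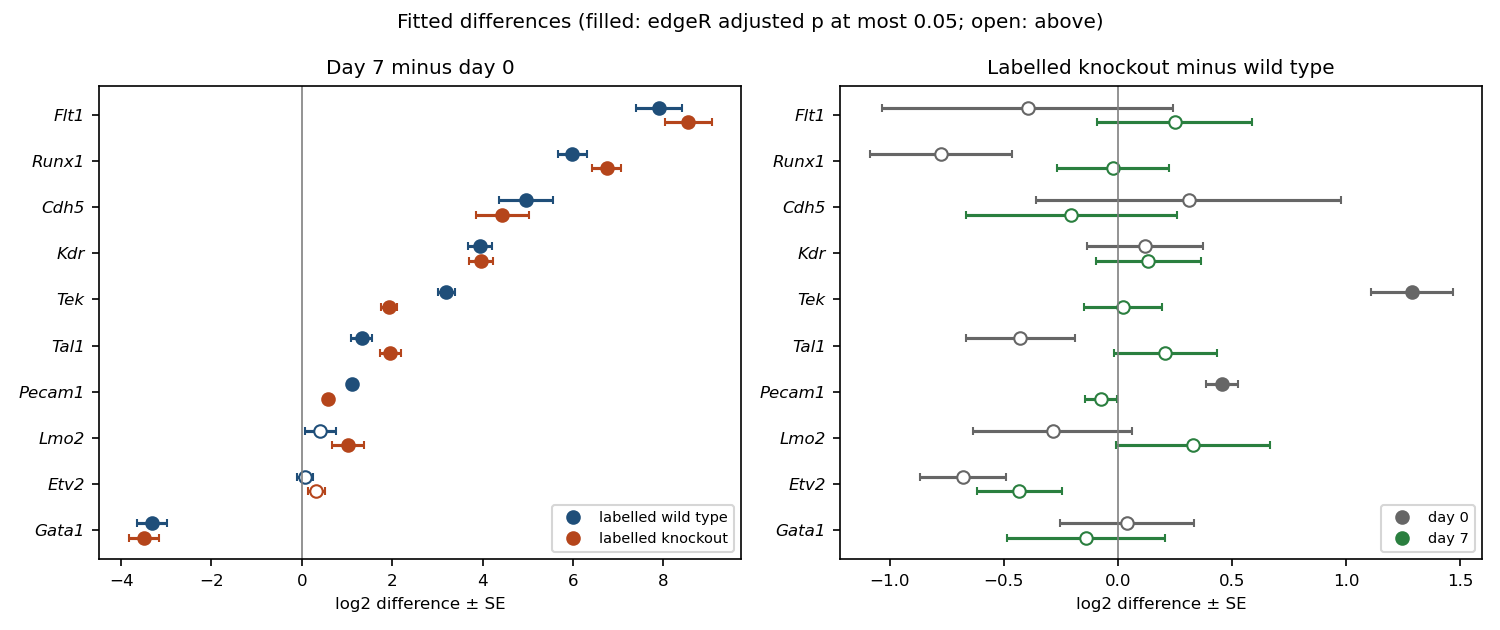
Fitted log2 differences with their SE (whiskers) for the 10 genes, day 7 minus day 0 in each genotype (left) and labelled knockout minus wild type at each day (right); filled points have an edgeR adjusted p of at most 0.05. The changes over 7 days run from 8.55 for Flt1 to -3.50 for Gata1, and between genotypes only Tek and Pecam1 at day 0 are filled.

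For each gene except Etv2, the differences between genotypes were smaller than its changes over the 7 days. At day 0 Tek and Pecam1 were higher in the libraries labelled knockout, 2.45-fold (log2 1.29, SE 0.18, adjusted p = 0.0313) and 1.37-fold (log2 0.46, SE 0.07, adjusted p = 0.0431), and at day 7 none of the 10 genes was called. The day 0 count of 2 of 10 stands beside 0.13% of all genes tested (0.0884% higher and 0.0416% lower), and at an unadjusted p under 0.05 it was 4 of 10 beside 11.9%. Neither call held in every fit, though the differences stayed close in size: without single libraries Tek lay between 1.13 and 1.40 and Pecam1 between 0.41 and 0.50, and in a fit to the 6 day 0 libraries alone they were 1.28 and 0.45. Tek was not called without wild type replicate 1 (adjusted p = 0.0721), wild type replicate 2 (0.0680) or labelled knockout replicate 1 (0.0540), nor in the fit to day 0 alone (0.281), and Pecam1 was not called without any 1 of the 6 libraries (0.0566 to 0.127) or in that smaller fit (0.610). DESeq2 called 3 of the 10 at day 0, beside 1.95% of the genes it tested: Tek (adjusted p = 8.4e-08), Pecam1 (1.6e-05) and Etv2, lower in the labelled knockout by 0.69 log2 units (0.0434).

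Etv2 was 0.68 log2 units lower in the labelled knockout by edgeR at day 0 (SE 0.19, adjusted p = 0.227) and 0.43 lower at day 7 (SE 0.19, adjusted p = 0.587). Neither passed, though the groups did not overlap at either day. Runx1 was 0.78 lower at day 0 (SE 0.31, adjusted p = 0.368), and 1.34 lower (adjusted p = 0.0316) without labelled knockout replicate 2, the library with the highest Runx1 level of its group. At day 7 edgeR called 0 of the 10 genes (1 at an unadjusted p under 0.05, and 0 by DESeq2), beside 0.026% of all genes (0.0052% higher and 0.0208% lower). The background was 8.18% at an unadjusted p under 0.05 and 0.656% by DESeq2. At that day 3 of the 10 had groups that did not overlap, Flt1 higher and Pecam1 and Etv2 lower in the labelled knockout, where 19.5% of all genes did (6.7% higher and 12.8% lower). At day 0 it was 3 of 10, Tek and Pecam1 higher and Etv2 lower, beside 15.7% of all genes (8.48% higher and 7.22% lower).

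Whether the change over 7 days differed between genotypes was tested as an interaction. By edgeR 0 of the 10 genes passed, beside 0.026% of all genes, and 2 had an unadjusted p under 0.05, beside 6.86%. The largest was Tek, whose rise was 1.27 log2 units smaller in the labelled knockout (SE 0.25, adjusted p = 0.212), and that of Pecam1 was 0.53 smaller (SE 0.10, adjusted p = 0.196). DESeq2 called both (adjusted p = 0.00183 and 0.00162), beside 0.672% of the genes it tested. Tek and Pecam1 were also the 2 genes that were higher in the labelled knockout at day 0, and these comparisons share the day 0 libraries.

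Transcripts of 1 gene were estimated by the authors from reads shared by several forms, so their shares are descriptions. Flt1 reads at day 7 were divided between the full-length form Flt1-202 (1333 residues) and the shorter Flt1-203 (688 residues). A short Flt1 protein that lacks the membrane part is known as a soluble receptor that traps VEGF. Flt1-203 took 35.4, 30.3 and 42.6% of Flt1 reads in wild type and 28.3, 24.9 and 40.1% in the labelled knockout, so the genotypes overlapped. Tek was divided between forms of 1122 and 1123 residues, with the 1122-residue form at 55.6, 30.0 and 48.7% and at 79.1, 40.4 and 63.3%.

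Runx1 has a distal and a proximal start, used by different blood cell stages. At day 7 the distal start took 79.2, 48.1 and 40.7% of Runx1 reads in wild type and 80.1, 35.2 and 42.9% in the labelled knockout, and in both genotypes replicate 1 stood apart from the others. At day 0 it took 73.1 to 100% of the 23 to 69 reads of a library. Kdr, Cdh5 and Etv2 came almost wholly from 1 form: the Kdr form of 1345 residues took at least 96.2% and the Cdh5 form of 784 residues at least 99.6% of the reads of each library that had any, and Etv2 has a single annotated transcript.

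**Figure D3:**
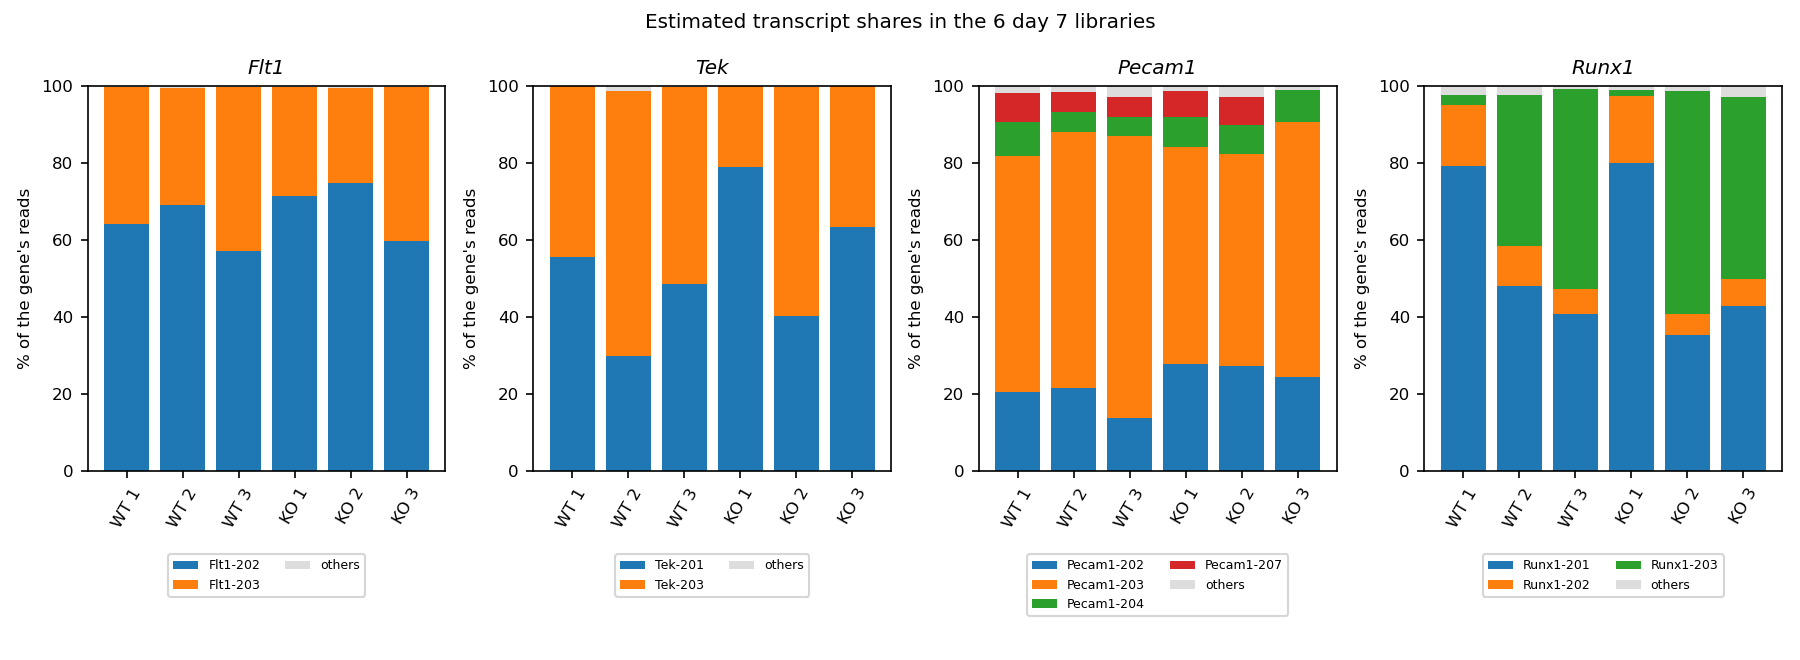
Share of a gene's reads that the authors' estimates give to each annotated transcript (percent, stacked bars) for Flt1, Tek, Pecam1 and Runx1 in the 6 day 7 libraries (wild type and labelled knockout, replicates 1 to 3). The shorter form Flt1-203 lies between 24.9 and 42.6%, and the main Runx1 form from the distal start is at 79.2 and 80.1% in replicate 1 and at 35.2 to 48.0% in the others.

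The hybrid cells allowed reads to be given to 1 parental chromosome set, named genome 1 and genome 2 in the files, which do not say which strain each is. Apart from Etv2, the 10 genes fell into 3 kinds. Pecam1, Flt1 and, at day 7, Kdr had reads of both genomes; Tek, Cdh5, Tal1, Lmo2 and Runx1 had reads almost wholly of genome 1; and X-linked Gata1 had both at day 0 and genome 2 alone at day 7. Etv2 had only 87 allele-resolved reads in the 12 libraries; 7 libraries had any, 6 of them of 1 genome only, so no balance is given.

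Pecam1 had a genome 2 share of 60.2% in wild type (95% exact binomial interval 58.4 to 62.1%, 2669 reads) and 60.9% in the labelled knockout at day 0, and of 52.7% and 54.8% at day 7. Flt1 was at 46.7% in wild type (4617 reads) and 45.0% in the labelled knockout at day 7. Intervals cover counting error only, since amplified reads are not independent molecules. Kdr was at 59.7% (57.7 to 61.6%, 2459 reads) and 59.3% at day 7, but at 9.76% (4.31 to 18.3%) of 82 reads and 13.2% (7.00 to 21.9%) of 91 reads at day 0. Those day 0 shares varied between libraries from 0 to 33.3% in wild type and from 0 to 26.3% in the labelled knockout, and all 8 genome 2 reads of wild type came from replicate 2.

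Cdh5 had no genome 2 read among 1106 allele-resolved reads over the 12 libraries, which allows a share of up to 0.271% by a floor of 3 reads and up to 0.333% by the exact interval. Lmo2 had none among 683, which allows up to 0.439% by that floor and 0.539% by the exact interval. Runx1 had 10 genome 2 reads of 10430, Tal1 2 of 442 and Tek 150 of 5336, or 2.81% (2.38 to 3.29%). Low shares were seen at both days and in both genotypes, with Tek between 2.31 and 3.51% in the 4 groups, but day 0 reads were few for Cdh5 and Tal1. Cdh5 had 18 in wild type and 15 in the labelled knockout at day 0, which allow up to 18.5% and 21.8% by the exact interval. Tal1 had 60 and 41, which allow up to 11.5% and 8.60%. Among neighbouring genes within 1 megabase, the genome 2 share was under 5% for 14 of 15 around Cdh5, 21 of 26 around Runx1 and 15 of 19 around Tal1. Around Lmo2 it was 13 of 26 (50%) and around Tek 4 of 10 (40%), close to the 46.3% of all autosomal genes. The genome 2 share was under 5% for 0 of 20 neighbours of Kdr, 2 of 26 of Flt1 and 1 of 45 of Pecam1. Over all autosomal genes with at least 20 such reads, 8790 of 18976 (46.3%) were under 5%, so a lack of genome 2 reads is common in these data and not particular to these genes; whether genome 2 is absent there or its reads could not be assigned was not tested.

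Gata1 had 127 genome 1 and 228 genome 2 reads in wild type at day 0, a genome 2 share of 64.2% (59.0 to 69.2%), and 56.3% (50.7 to 61.8%) of 323 reads in the labelled knockout. At day 7 all 55 wild type reads and all 31 labelled knockout reads were of genome 2, which by the floor of 3 reads allows a genome 1 share of up to 5.45% and 9.68%. The exact intervals of the genome 2 share start at 93.5% and 88.8%, which is a wider limit. X-linked genes as a whole went the same way, with a pooled genome 2 share of 53.4 to 54.3% in the day 0 libraries and 90.9 to 91.7% at day 7. Female cells silence 1 of their X chromosomes as they differentiate. With at most 24 reads a library at day 7, Gata1 was too low for the test of balance.

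The balance test, edgeR on genome 1 and genome 2 counts, needs 20 allele-resolved reads in every library and called 0 of the 4 genes testable between genotypes at day 0, 0 of 8 at day 7, 0 of 5 between days in wild type and 0 of 3 in the labelled knockout. The share of all genes called was 0.00952%, 0%, 2.24% and 2.09%. Some of those genes had no genome 2 read in the compared libraries and could not have been called: Lmo2 in all 4 comparisons, and Cdh5 and Tal1 between genotypes at day 7. Genes with reads of both genomes were 3, 5, 4 and 2 in the 4 comparisons. Among these, Tek and Runx1 had so few genome 2 reads that a call was hardly possible. The SE of Tek ran from 1.24 to 111.7 log2 units over the 4 comparisons. That of Runx1 was 1.78 between genotypes at day 7 and 1.09 between days in wild type. At an unadjusted p under 0.05 the counts were 0, 0, 2 and 0, the 2 being Kdr (adjusted p = 0.312) and Pecam1 (adjusted p = 0.416) between days in wild type. The share of all genes at that unadjusted threshold was 1.86%, 2.18%, 11.8% and 9.42%. No other tool was run on the balance. On simulated data this test found 199 of 200 genes whose allelic odds were shifted 4-fold and 0 of 200 shifted 2-fold. The shifted genes had many allele-resolved reads, in similar numbers from both genomes. Tek, Runx1 and, at day 0, Kdr lay outside that setting. Kdr was not called between days in wild type at a fitted shift of 3.91 log2 units of the odds. The counts of 0 therefore say little about shifts of 2-fold or less, and for these 3 genes little about larger shifts.

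**Figure D4:**
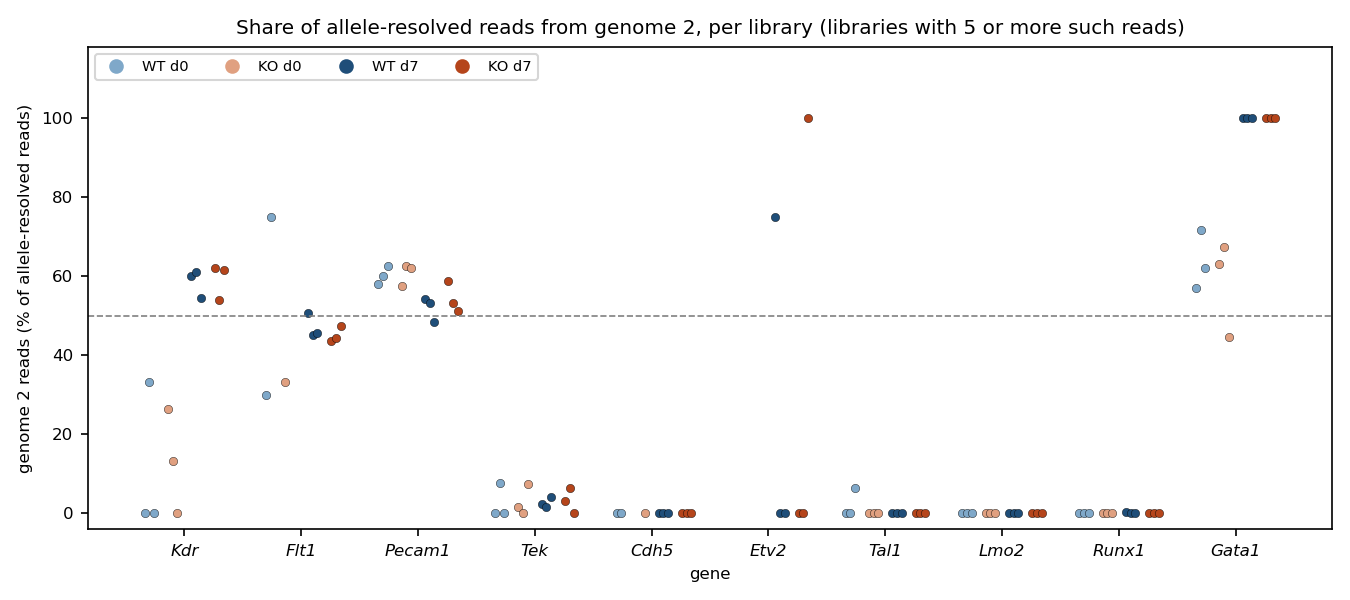
Genome 2 reads as a percent of allele-resolved reads for each of the 10 genes, 1 point per library with 5 or more such reads, coloured by group (dashed line: 50%). Cdh5, Lmo2 and Runx1 lie at or near 0 in all 4 groups, Pecam1 between 48.4 and 62.6%, and Gata1 moves from 44.5 to 71.6% at day 0 to 100% at day 7.

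The ligands and partners of these genes were read from lists chosen with earlier results of these data known, each given beside the share of all genes that rose (32.9%) or fell (32.1%) in wild type. Of 8 VEGF and angiopoietin ligands 7 rose and 1 fell over 7 days in wild type. Vegfa, the main ligand of Kdr, went from 16.3 ± 4.11 to 70.2 ± 5.45 CPM (log2 2.11, adjusted p = 1.1e-06), and Pgf, which binds Flt1 alone among the VEGF receptor kinases, from 0.331 ± 0.145 to 24.7 ± 1.11 CPM (log2 6.20, adjusted p = 3.8e-09). Vegfd fell by 0.85 on the log2 scale (adjusted p = 0.00925). Of 7 receptors and co-receptors 5 rose, led in level by the VEGF co-receptor Nrp1 (0.339 ± 0.0521 to 194.9 ± 37.4 CPM), while Eng, a co-receptor for TGF-beta ligands on endothelium, fell from 73.9 ± 15.6 to 14.9 ± 3.18 CPM and Flt4, the receptor for Vegfc, from 6.98 ± 1.16 to 3.03 ± 0.651 CPM.

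Other endothelial genes were mixed: of 18 tested, 6 rose and 8 fell in wild type, and 5 rose and 9 fell in the labelled knockout. The apelin receptor Aplnr went from no read to 22.1 ± 1.62 CPM in wild type, at least 708-fold higher against a floor of 3 counts over the group. Nos3, the nitric oxide synthase of endothelium, fell by 3.19 log2 units (adjusted p = 2.5e-06). Of 17 endothelial transcription factors 13 rose and 2 fell. Ets1 went from 0.241 ± 0.101 to 54.5 ± 8.67 CPM, and Klf2, a factor that responds to blood flow and is also expressed in naive ES cells, fell from 566 ± 33.1 to 14.9 ± 1.57 CPM.

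Blood genes were mixed as well. Of 22 progenitor transcription factors 11 rose and 4 fell in wild type, among them Zfpm1, the cofactor of Gata1, which rose from 27.0 ± 2.64 to 84.1 ± 8.27 CPM, and Spi1, the myeloid factor PU.1, which fell by 4.26 log2 units (adjusted p = 0.00244). Of 11 globin and erythroid genes tested 6 rose and 1 fell. The embryonic globins Hba-x and Hbb-bh1 had no read at day 0 in either genotype; at day 7 Hba-x was at 13.7 ± 2.59 CPM in wild type and 5.66 ± 0.555 CPM in the labelled knockout, and Hbb-bh1 at 7.04 ± 0.604 and 3.47 ± 0.386 CPM. Neither difference between genotypes passed (log2 -1.28, adjusted p = 0.258, and -1.02, adjusted p = 0.384). The adult alpha globins Hba-a1 and Hba-a2 are near-identical copies, and their counts are uncertain. Of 8 blood surface and platelet genes tested 2 rose and 5 fell, with Laptm5 going from 90.3 ± 5.97 to 0.995 ± 0.132 CPM, while Ptprc, the leukocyte antigen CD45, stayed too low to test. Of 11 early mesoderm genes 10 rose, among them T (0.496 ± 0.0937 to 135 ± 8.24 CPM) and Hand1 (2.47 ± 0.399 to 1945 ± 119 CPM).

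**Figure D5:**
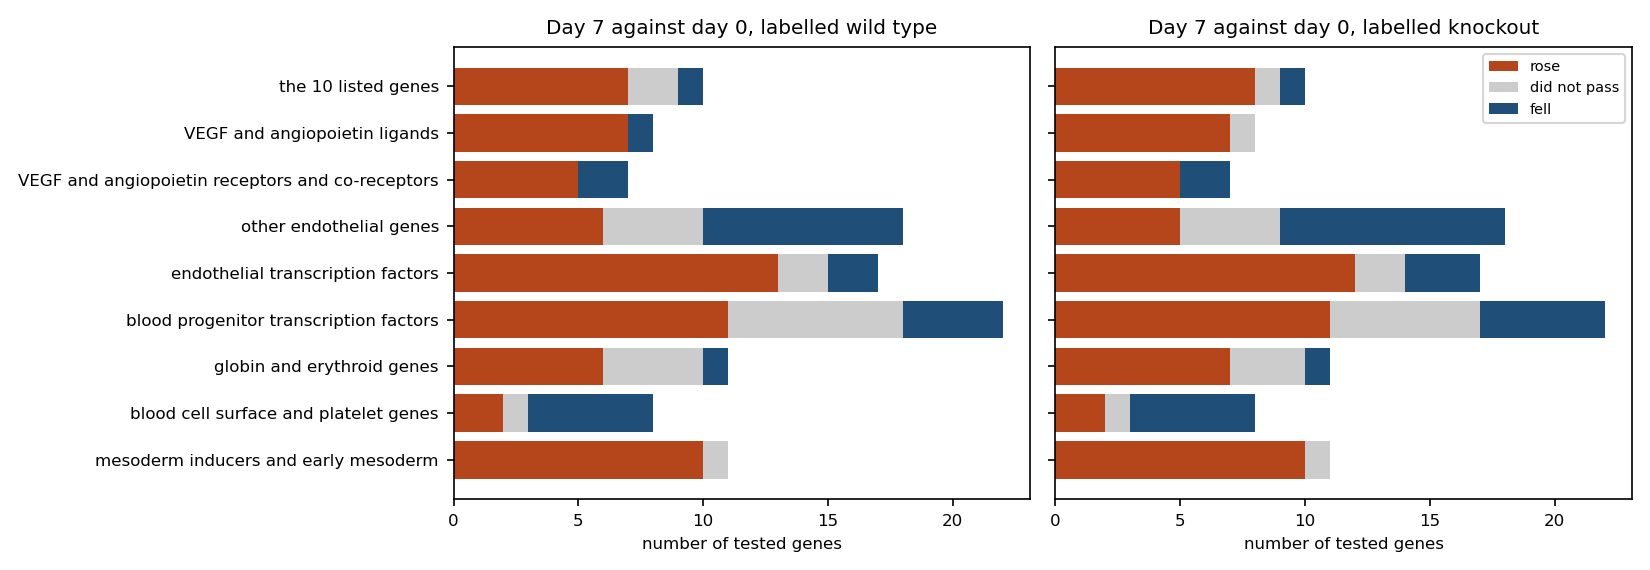
Number of tested genes of each list that rose, fell or did not pass (edgeR adjusted p at most 0.05) over 7 days in wild type (left) and in the labelled knockout (right). Ligands and mesoderm genes rose almost throughout (7 of 8 and 10 of 11 in wild type), while the other endothelial genes (6 rose, 8 fell) and the blood surface genes (2 rose, 5 fell) were mixed.

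The genes whose profile over the 12 libraries lay closest to each member were found by the root mean square difference of log2 CPM, each centred on its own mean. Nearest to Kdr was Tes (0.163 log2 units), to Flt1 Lsp1 (0.499), to Pecam1 Pdxdc1 (0.0705), to Tek Acsl3 (0.251), to Runx1 Prtg (0.252), to Tal1 Nfatc4 (0.143), to Etv2 Ddrgk1 (0.162) and to Gata1 Crtac1 (0.281). These genes were sought among all tested genes outside the members above a minimum level, a far larger set than the members themselves. For every member the nearest other member lay farther away, the smallest such distance being 0.490 (Pecam1 and Lmo2). Given the sizes of the sets, this says little about whether the members share a pattern. Low counts widen this distance, so it cannot be compared between members.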

How the data were processed

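Polyadenylated RNA of 12 libraries was sequenced. Reads were aligned and counted by the authors; as tools their processing notes name StringTie (1.3.3), HISAT2 (2.1.0), Trimmomatic (0.36), DESeq2 (1.32.0), SAMtools (0.1.19) and also FastQC (0.11.3), per the submitters' processing notes, and as builds GRCm38 and mm10. Settings and the use of strand were not stated in the sources used here, so overlapping and antisense genes cannot be told apart. The authors deposited expected counts per gene and per transcript for all reads, and expected counts per gene by parental genome; all were already whole numbers. Gene identifiers were matched to GENCODE M21 on GRCm38 (55227 of 55487, or 99.5%), which gave coordinates and lengths.

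Tests used edgeR 4.0.16 in R 4.3.3: filterByExpr by group, TMM, a quasi-likelihood fit of 1 coefficient per group to all 12 libraries, no replicate block, and Benjamini-Hochberg adjustment over 19235 genes with a threshold of 0.05. Allelic balance was tested on genome 1 and genome 2 counts of the compared libraries with a block per library, for genes that had 20 or more allele-resolved reads in each library. Replicates of a group differed by more than sampling noise (chi-square per degree of freedom 24.6 to 60.7), so none was counted as a repeat. On simulated counts over 17388 genes, labelled knockout against wild type at day 0, the expression test found 95% of genes changed 2-fold and 100% of those changed 4-fold. It also called 11 unchanged genes. The simulation started every group from the wild type day 0 profile, with the same fixed spread for every gene. Only genes above a minimum count were changed. These rates therefore do not carry over to each gene in the data: Sirt7, at a fitted 1.93-fold at day 0, was not called. The allelic test was simulated for labelled knockout against wild type at day 7 over 11032 genes. The shifted genes came from those with many allele-resolved reads, in similar numbers from both genomes. A 2-fold shift of the allelic odds was simulated first and 0 of 200 genes were found; the shift was then raised to 4-fold, where 199 of 200 were, and both are reported. Other tools were DESeq2 1.42.0 as an alternative, and Python 3.11.15 with matplotlib 3.10.9 for counts and figures.

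The members and the gene lists were chosen with earlier results of these data known. Named genes are the 10 members, Sirt7 and the genes of nearest profile. From each list they are a selection of its 3 highest at day 7 and its 3 largest called rises and falls in wild type. List genes called between genotypes or in the interaction are also named, which was Esrrb alone. Which of the list genes to print was decided after their values were seen. Emcn, Cldn5, Sox18, Ptprc, Hba-a1 and Hba-a2 fall outside this rule and were named after their values were seen. Sequences are from RefSeq.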

Additional observations from a re-analysis of the deposited data

How the results depend on the processing

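The 10 genes' calls between days were the same under DESeq2, other size factors, no filter on low counts, fits to the compared groups alone and both replicate blocks; without single libraries 8 of 10 were called in each fit in wild type and 8 or 9 in the labelled knockout, the change being Lmo2. Calls between genotypes changed with the fit. At day 0, 2 of the 10 genes became 1 without the filter, 0 with the replicate block, 0 with the compared groups alone and 0 to 2 without single libraries; over all genes, 25 became 327 by DESeq2, 6 with the block, 0 with the compared groups alone and 20 to 55 without single libraries. At day 7, 5 genes became 131 by DESeq2, 2 with the block, 9 with the compared groups alone and 6 to 13 without single libraries. For the interaction, 0 of the 10 became 2 by DESeq2, and 5 genes became 130 by DESeq2, 8 without the filter, 0 with either block and 0 to 15 without single libraries. Allelic balance between days in wild type went from 0 to 1 of 5 genes without wild type day 0 replicate 2 (0 to 1 over the fits). Deviations of same-numbered libraries from their group means correlated between -0.0605 and 0.0909 over 11055 genes. These values do not settle whether libraries of equal number share a culture or a batch. Under the block Tek and Pecam1 at day 0 each had an adjusted p of 0.108. Signs turned only for differences that were not called: labelled knockout minus wild type at day 0 without single libraries for Kdr (-0.11 to 0.34), Gata1 (-0.024 to 0.16), Cdh5 (-0.18 to 1.21) and Flt1 (-1.03 to 0.054); at day 7 for Tek (-0.0019 without the filter, -0.12 to 0.16), Runx1 (0.012 with the compared groups alone, -0.12 to 0.070) and Gata1 (-0.60 to 0.13); the days in wild type for Etv2 (-0.025 to 0.18); and the interaction of Kdr (-0.0086 without the filter, -0.21 to 0.26) and Gata1 (-0.64 to 0.091). The cause of these changes was not tested. Day 0 reads limit Flt1 and Cdh5. Allele-resolved reads limit Etv2, Gata1 at day 7, and Flt1, Cdh5 and Tal1 at day 0.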
